A study of Parascaris univalens with 7 samples.

Results

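The fer-1 genes of the horse roundworm Parascaris univalens, a parasite of the horse intestine, are the genes whose annotation text names the sperm vesicle fusion protein fer-1. They were found by searching that phrase, without regard to case, in the annotation of every transcript of the deposited expression table. The search returned 35 transcripts of 7 genes, out of 40487 transcripts of 15027 genes in all. In 1 of the 7, PgE089_g002, only 2 of 11 transcripts bear the fer-1 name and the others are annotated as Myoferlin, so 6 genes remain when a gene is judged by its highest transcript. All 7 genes are marked as eliminated. They lie on 4 scaffolds (PgE022, PgE032, PgE089 and PgE142), and 46 transcripts of any annotation belong to them.

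In Caenorhabditis elegans, FER-1 is a large membrane protein with several C2 domains, which bind calcium and phospholipids. It is needed when the spermatid becomes a crawling sperm, because it lets the vesicles called membranous organelles fuse with the plasma membrane. It is the founding member of the ferlins, a family that in mammals includes dysferlin, which acts in the repair of muscle membrane, otoferlin, which acts in transmitter release from hair cells, and myoferlin. In Parascaris, the germline retains the complete genome, and the somatic cell lineages lose a portion of it during early development. A gene marked as eliminated lies in the DNA that somatic cells lose.

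RNA was measured in 1 library each of testis (labelled male germline), ovary (female germline), embryo, intestine and carcass, the last 3 all labelled male somatic. The worms were untreated and of a North American wild-type strain. Adults of both sexes were dissected, and neither their age nor how many entered a library is given. The design text counts 1 mixed 5′-end sample, but 2 mixed libraries for 5′ ends are listed, by spliced leader and by TeloPrime. They appear in the table only as marks on transcripts. The values are RPKM, read counts scaled by transcript length and by library size, to 1 decimal, and a gene is given by its transcript with the highest mean over the tissues. No p-value was computed, since each tissue has a single library, and differences are those between these libraries. Intervals are exact 95% Poisson limits that add the 0.05 RPKM hidden by rounding. They cover counting and rounding error only, and PCR copies are not separate molecules.

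Depth, recovered from the steps between low values, was about 31350000 reads for the testis library, 31800000 for the ovary, 11900000 for the embryo, 18500000 for the intestine and 27600000 for the carcass. The tissue labels were checked against markers. The 12 genes annotated as major sperm protein summed to 12045.5 RPKM in testis and to between 13.1 and 325 in the other tissues. The 17 genes of eggshell chondroitin proteoglycans and ovarian message proteins summed to 36180.3 RPKM in ovary and at most 2796 elsewhere, and the 161 of cuticle collagens, troponins and paramyosin to 42310.2 in carcass and at most 2756 elsewhere. The 4 vitellogenin genes, whose yolk proteins are made in the intestine of egg-laying C. elegans, summed to 2091 RPKM in intestine, 447 in carcass and at most 216 elsewhere, although intestine and carcass are labelled male. No marker was set for the embryo.

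The fer-1 genes were testis genes of moderate level. Testis values of the transcripts that stand for the genes ran from 5.3 to 48.7 RPKM with a median of 25.8. In every member this transcript was also the one with the highest testis value. Over all 46 transcripts of the 7 genes, the highest value outside testis was 3.8 in embryo, 1.4 in ovary, 1.1 in intestine and 0.8 in carcass. All 35 fer-1-annotated transcripts were higher in testis than in each of the other 4 tissues. The testis median of all genes was 4.4 RPKM, and that of the 985 eliminated genes was 13.6. In bulk tissue, more cells of a type and more RNA per cell cannot be told apart.

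PgE022_g007 was the highest member, at 48.7 RPKM in testis (interval 46.6 to 50.9). This transcript was listed at 0 in ovary and in embryo, at 1.1 in intestine (0.690 to 1.65) and at 0.8 in carcass (0.500 to 1.20). The longer of its 2 transcripts had 22.5 RPKM in testis, 0.2 in ovary (0.085 to 0.367) and 0.2 in embryo (0.054 to 0.465). The testis interval of the higher transcript lay far above the others, and 90.7% of all genes were at or below its testis level.

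PgE032_g003 was at 28.7 RPKM in testis (25.6 to 32.0) in its highest transcript, which was listed at 0 in ovary, embryo, intestine and carcass. That transcript is the shortest of 6, with 363 nt, so a listed 0 allows up to 0.956 RPKM in embryo and up to 0.417 in ovary. The 6 transcripts ran from 11.3 to 28.7 RPKM in testis, and all were listed at 0 in ovary and carcass. In embryo 1 of them was at 0.5 RPKM, and in intestine 2 were at 0.4 and 0.3.

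PgE032_g002 was at 25.8 RPKM in testis (24.8 to 26.9), 0.1 in ovary (0.016 to 0.247), 2.4 in embryo (1.89 to 3.0), 0.6 in intestine (0.377 to 0.891) and 0.3 in carcass (0.157 to 0.497). Outside the testis the embryo value of this transcript stood apart, since its interval did not meet those of the remaining 3 tissues. Embryo lay above ovary beyond the intervals in 13 of its 19 transcripts and below it in 3.

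PgE089_g002 was at 28.3 RPKM in testis (27.3 to 29.3), 1.4 in ovary (1.15 to 1.68), 1.5 in embryo (1.12 to 1.96), 0.4 in intestine (0.226 to 0.636) and 0.2 in carcass (0.085 to 0.365). In this transcript, annotated Myoferlin, ovary and embryo overlapped each other and lay above intestine and carcass. In the other 10 transcripts of the gene, both fer-1-annotated ones included, embryo lay above ovary beyond the intervals, at 2.0 to 3.8 RPKM in embryo and 0.6 to 1.2 in ovary.

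PgE142_g001 was at 25.2 RPKM in testis (23.8 to 26.7), at 0.6 in ovary, embryo and intestine alike, and at 0.4 in carcass (0.196 to 0.701). The 4 low tissues were not ordered, because their intervals overlapped.

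The remaining members were low. PgE089_g001 was at 8.3 RPKM in testis (7.96 to 8.65), 0.2 in ovary (0.113 to 0.306), 1.1 in embryo (0.886 to 1.34), 0.2 in intestine (0.103 to 0.326) and 0.1 in carcass (0.029 to 0.199). PgE032_g001 was the lowest, at 5.3 RPKM in testis (4.79 to 5.85), 1.3 in ovary (1.03 to 1.61), 0.4 in embryo (0.180 to 0.739) and 0.6 in intestine (0.368 to 0.907), and was listed at 0 in carcass. Its ovary value was a larger share of its testis value (24.5%) than in any other member.

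By testis level the members ran PgE022_g007, PgE032_g003, PgE089_g002, PgE032_g002, PgE142_g001, PgE089_g001 and PgE032_g001. The interval of PgE032_g003 overlapped those of PgE089_g002, PgE032_g002 and PgE142_g001, so these intervals alone do not place it above them. Those of PgE032_g002 and PgE142_g001 also overlapped each other, and that of PgE089_g002 lay above both. The order is that of the highest transcripts, and the place of PgE032_g003 rests on its shortest one, since its other transcripts had 11.3 to 23.7 RPKM in testis.

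**Figure D1:**
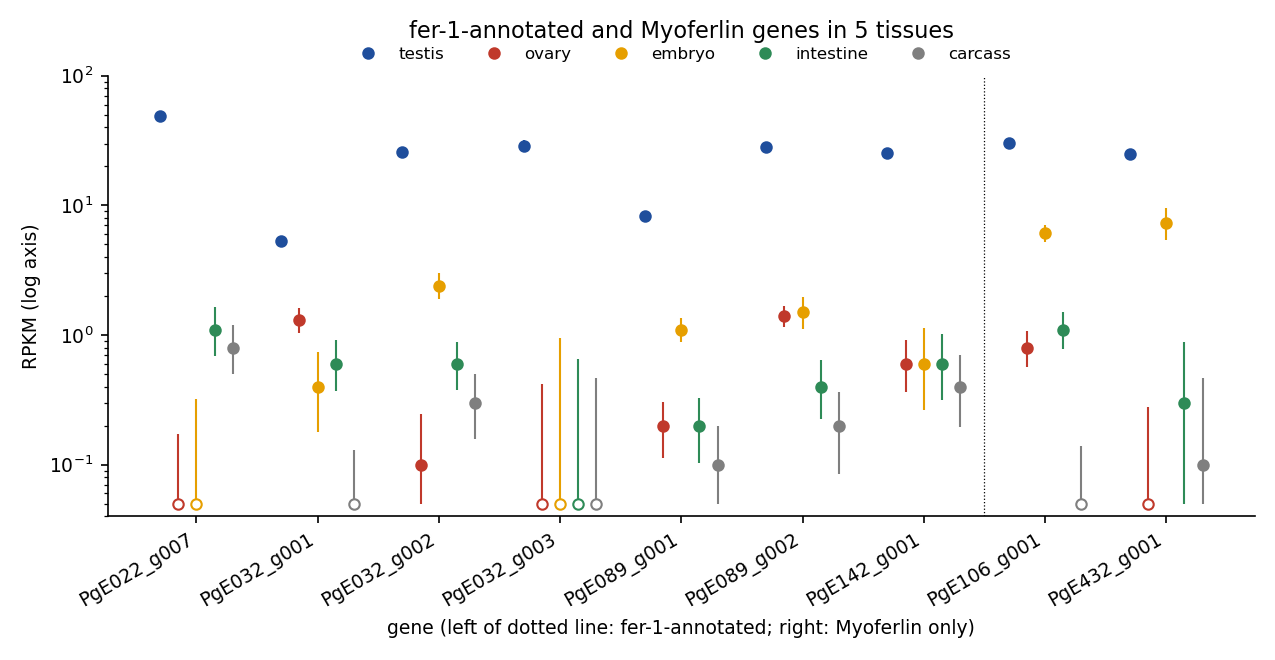
RPKM (log axis) of the transcript that stands for each of the 7 fer-1-annotated genes and, right of the dotted line, 2 genes annotated as Myoferlin only, in testis, ovary, embryo, intestine and carcass (1 library each). Bars are 95% counting and rounding intervals, cut at 0.05, and open circles at 0.05 are values listed at 0. Every gene is highest in testis, between 5.3 and 48.7 RPKM, and the 2 Myoferlin genes are next highest in embryo, at 6.1 and 7.3 RPKM.

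A gene was called higher in testis when its difference on the log2(RPKM + 1) scale was at least 2, a 4-fold change, with at least 5 RPKM in testis. This scale understates the folds of low genes. All 7 members reached 5 RPKM, and the lowest, PgE032_g001, did so narrowly at 5.3. Against ovary, 6 of 7 members were called, beside 11.6% of all genes and 44.8% of eliminated genes. The exception was PgE032_g001, with a difference of 1.45. The median difference of the members was 4.03, against −0.56 over all genes and 1.63 over eliminated genes. The largest was 5.64, in PgE022_g007. No member had a higher value in ovary than in testis. Of all genes 15.9% were called higher in ovary, with at least 5 RPKM there.

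Against embryo, all 7 members were called, beside 11.6% of all genes and 45.1% of eliminated genes, with differences between 2.15 and 5.64. The lowest of them, 2.15 in PgE089_g001 and 2.17 in PgE032_g001, lay just above the threshold, and with an 8-fold threshold 4 members were called. Against intestine, 6 of 7 were called (15.8% of all genes, 63.1% of eliminated genes), and PgE032_g001 missed the threshold narrowly with 1.98. Against carcass, all 7 were called (18.4% of all genes, 64.5% of eliminated genes), with differences between 2.66 and 4.89.

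Enrichment in testis over each of the other 4 tissues held for 6 of 7 members, beside 9.48% of all genes and 41.7% of eliminated genes. The members shared this pattern with many other eliminated genes. No member was called higher in ovary than in both intestine and carcass, a call that covered 16% of all genes and 26.4% of eliminated genes. The call needs at least 5 RPKM in ovary, and the members reached at most 1.4 there, so none could pass. Without the minimum level the count was also 0. In PgE089_g002 and PgE032_g001 ovary did lie above intestine and carcass beyond the intervals, but short of the threshold on the log2(RPKM + 1) scale.

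**Figure D2:**
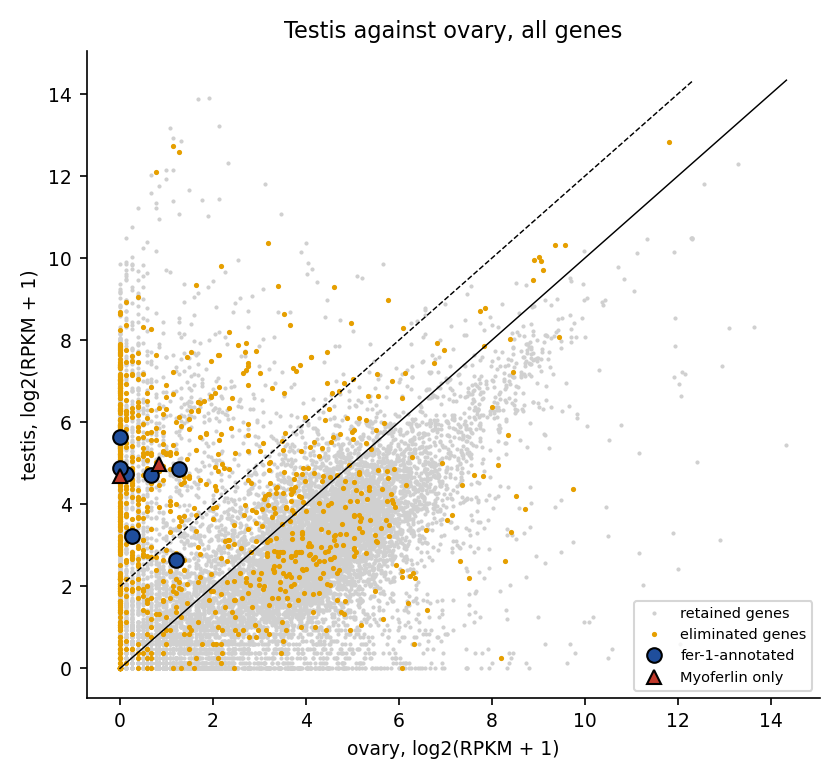
Testis (vertical) against ovary (horizontal) for all 15027 genes, each on the log2(RPKM + 1) scale, with retained genes in grey, eliminated genes in orange, the 7 fer-1-annotated genes as blue circles and the 2 Myoferlin genes as red triangles. The solid line marks equal values and the dashed line a difference of 2. Of the fer-1-annotated genes 6 lie above the dashed line, and PgE032_g001, at a difference of 1.45, lies below it.

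Every gene named as a ferlin in the table is marked as eliminated. Besides the 7 members, 2 genes are annotated as Myoferlin, PgE106_g001 and PgE432_g001, so that 9 genes on 6 scaffolds carry a fer-1 or ferlin name, and none of the 14042 retained genes does. Eliminated genes make up 6.55% of all genes. The names were carried over by similarity, and a ferlin annotated under another name would not be counted. PgE106_g001 was at 30.4 RPKM in testis (29.1 to 31.7), 0.8 in ovary (0.570 to 1.08), 6.1 in embryo (5.19 to 7.12) and 1.1 in intestine (0.773 to 1.51), and was listed at 0 in carcass. PgE432_g001 was at 24.7 RPKM in testis (22.5 to 27.0), at 7.3 in embryo (5.45 to 9.56) and at 0.3 and 0.1 in intestine and carcass, and was listed at 0 in ovary. Their testis levels lay within the range of the members. In embryo the transcripts that stand for them lay above those of all 7 members, at 20.1% and 29.6% of their own testis levels. PgE432_g001 was the only 1 of the 9 genes to miss the testis call against embryo defined above, with a difference of 1.63.

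The genes varied in structure. The spans ran from 4670 nt in PgE032_g001 to 41669 nt in PgE032_g002, and the number of transcripts from 2 to 19 per gene, with a median of 3 against 2 over all genes. The highest transcripts were between 363 and 11657 nt long with 3 to 20 exons. Their median length of 2845 nt compares with 1325 nt over all genes, and their median of 6 exons equals that of all genes. Several models reach close to the first base of their scaffold. The lowest position is 3 in PgE032_g001 and 155 in PgE089_g001, both on the plus strand, where it is the 5′ end, and 331 in PgE142_g001, on the minus strand, where it is the 3′ end. In the Myoferlin genes it is 32 in PgE432_g001 (plus strand) and 107 in PgE106_g001 (minus strand). Whether such models are whole genes was not tested. Positions are those of the deposited table, whose genome build is not given in the sources used here.

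PgE022_g007 lies on scaffold PgE022 between 53117 and 62325 on the minus strand. It has 2 transcripts. The shorter, with 1374 nt, 6 exons and an end at 57861, had 48.7 RPKM in testis, and the longer, with 3245 nt and 7 exons, had 22.5. The values correspond to about 2098 and 2289 reads, so the counts behind the 2 models were much closer than the RPKM values. The longer model carries the TeloPrime mark, the only such mark among the members. All 7 genes of this scaffold are eliminated, and they do not share a pattern. A transient-receptor-potential-like channel gene (PgE022_g001) had 141 RPKM in testis against 0.2 in ovary. The gene annotated nose resistant to fluoxetine protein 6 (PgE022_g002) had 3.8 RPKM in testis against 75.1 in ovary. The nearest neighbour, glycogen synthase kinase-3 beta (PgE022_g006), a protein kinase, ends 116 nt away on the plus strand and had 20 RPKM in testis against 26.9 in ovary.

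Scaffold PgE032 holds 3 members and 1 further gene, annotated as hypothetical, which overlaps PgE032_g003 on the same strand. PgE032_g001 lies between 3 and 4672 on the plus strand. PgE032_g002 lies between 6169 and 47837, and PgE032_g003 between 47922 and 54358, both on the minus strand. The last 2 are 84 nt apart, with PgE032_g003 upstream. In testis the 6 transcripts of PgE032_g003 ran from 11.3 to 28.7 RPKM, and the 10 transcripts of PgE032_g002 confined to its 5′ portion, the side next to PgE032_g003, from 9.1 to 25.8.

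Within PgE032_g002 the value depended on which end of the gene a transcript covered. The 3 transcripts confined to its 3′ end, between 6169 and 12254, had 4.1, 4.2 and 5.7 RPKM in testis and 0.9, 0.7 and 1.1 in ovary. The 10 transcripts confined to its 5′ portion, between 18879 and 47837, had between 9.1 and 25.8 RPKM in testis (median 17.4) and between 0 and 0.3 in ovary (median 0.1). The testis levels of the 3′ transcripts were therefore all below those of the 5′ transcripts, and their ovary levels all above. In embryo the 3′ transcripts were each at 0.2 RPKM and the 5′ ones between 0.8 and 3.8. These regions were set after the values had been seen. Transcripts of a gene share reads and are not replicates.

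The testis and ovary values of the neighbouring PgE032_g001, 4.0 and 0.6 RPKM in its shorter transcript and 5.3 and 1.3 in its longer, lay close to those of the 3′ end of PgE032_g002, from which it is 1496 nt away on the opposite strand. The sources used here do not say whether the libraries kept the strand of the reads.

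**Figure D3:**
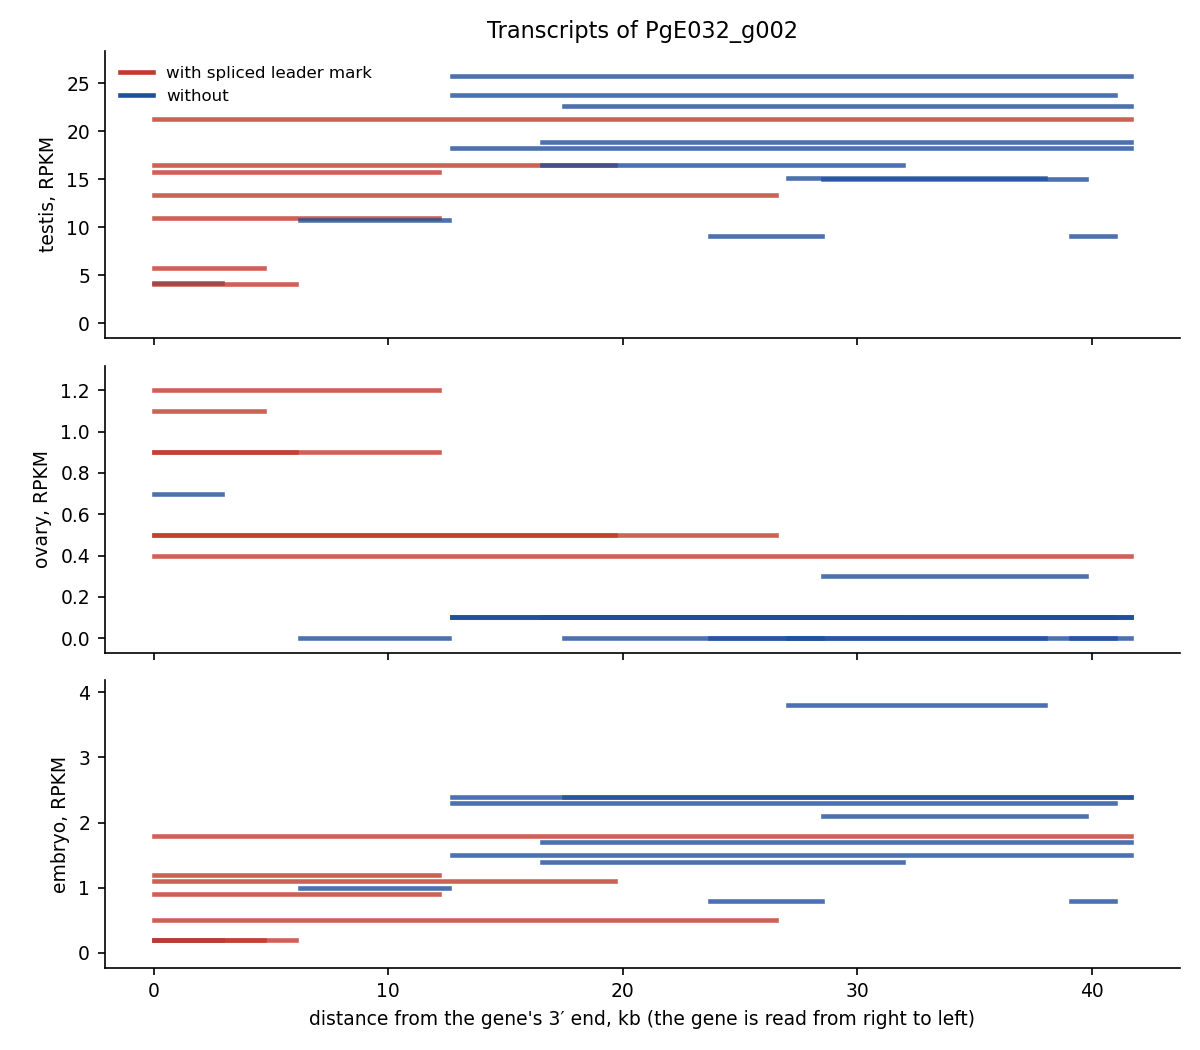
RPKM (vertical) of each of the 19 transcripts of PgE032_g002 in testis, ovary and embryo, drawn over the stretch each transcript spans (horizontal, kb from the 3′ end of the gene). Transcripts with a spliced leader mark are red and those without are blue. The transcripts confined to the 3′ end are lowest in testis, between 4.1 and 5.7 RPKM, and the ovary values are highest among transcripts that reach that end.

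On scaffold PgE089 the 2 members overlap over 20079 nt on opposite strands. PgE089_g002, on the minus strand from 1095 to 29359, has 2 transcripts annotated fer-1 and 9 annotated Myoferlin. Its 2 fer-1 transcripts, which end at 18012, both had 19.5 RPKM in testis, and all 11 had between 15.1 and 28.3. PgE089_g001, on the plus strand from 155 to 21173, has 3 transcripts, of which the fer-1-annotated one is 11657 nt long in only 6 exons and had 8.3 RPKM in testis. A second, annotated Myoferlin, had 6.8, and a single-exon one, annotated hypothetical, had 1.8. Reads of one of these genes may have been counted at the other, so their values may not be independent, which was not tested. PgE142_g001, alone on its scaffold between 331 and 17450 on the minus strand, has 3 transcripts with 9 or 10 exons at 25.2, 22.0 and 22.3 RPKM in testis. Reads that match several fer-1 copies may have been shared among them or counted at each, and the values do not tell which.

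The spliced leader is a short RNA that nematodes join to the 5′ end of many messages, and TeloPrime libraries capture capped 5′ ends, which the table marks as not trans-spliced. A spliced leader mark was found on 2 of 7 members, PgE032_g001 and PgE032_g002, beside 36.1% of all genes and 14.3% of eliminated genes. TeloPrime marked 1 of 7, PgE022_g007, beside 15.9% of all genes and 18.9% of eliminated genes. The other 4 members had neither mark, as did 54.5% of all genes and 70.2% of eliminated genes. In PgE032_g001 both transcripts carry the spliced leader mark. In PgE032_g002 it is on 7 of 19 transcripts. All 7 span the stretch from 9095 to 10872 and none of the 12 unmarked transcripts does. The bounds of that stretch were set from the marked and unmarked transcripts themselves, so this split follows from the choice and tests nothing. The 1 of the 7 with the shortest span begins, on the minus strand, at 10872. The marked transcript with the longest span begins at 47837, where some unmarked transcripts also begin. The stretch from 9095 to 10872 lies in the 3′ end of the gene, and none of the 10 transcripts confined to the 5′ portion is marked. Of the sperm proteins described next, 13 of 74 genes had a spliced leader mark and 40 had a TeloPrime mark.

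Genes of related role were taken from lists of annotation words. Of 74 genes with sperm or msp in their annotation, members left out, 53 were higher in testis than in ovary and 2 in ovary, with a median difference of 4.65, and 10 are eliminated. The highest were a major sperm protein isoform beta (PgE404_g001) at 6856 RPKM in testis and 1.2 in ovary, MSP-domain protein 1 (PgR011_g012) at 4529 and 1.2, a second major sperm protein isoform beta (PgE404_g002) at 4425 and 0.7, and MSP-domain protein 4 (PgR345_g001) at 2780 and 3.4. Major sperm protein forms the filaments on which nematode sperm crawl. The lowest of these 4, at 2780 RPKM in testis, compares with 25.8 for the median fer-1 gene. The list also holds genes with no such role, among them spermidine synthase. Presenilin spe-4 (PgR165_g010), whose C. elegans namesake is needed to build the membranous organelles, was the only gene of the list of further sperm-function names. It is retained, and at 26.6 RPKM in testis, listed at 0 in ovary and embryo, 0.9 in intestine and 0.4 in carcass, it was close to the fer-1 genes in level.

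Genes found by words for membrane fusion proteins had no such lean to testis. The words were synaptotagmin, syntaxin, synaptobrevin, SNARE, complexin, copine and the like, and they also take in proteins of general membrane traffic. Of the 39 genes, 1 was higher in testis than in ovary (11.6% of all genes) and 14 in ovary (15.9% of all genes). The median difference from ovary was −1.58, against −0.56 over all genes. From intestine and carcass it was −0.05 and −0.09, against 0.14 and 0.38 over all genes. None of the 39 is eliminated. The single testis gene was annotated syntaxin-18 (PgB05_g029), a SNARE protein that in mammals acts between the endoplasmic reticulum and the Golgi, at 269 RPKM in testis and 3.8 in ovary. Extended synaptotagmin-2 (PgR007_g191), a tether between membranes, had 18.3 RPKM in testis against 31.3 in ovary, and syntaxin-1A (PgR052_g027), a SNARE of secretion, at 14.4 and 58.3. The second highest of the list in testis, PgR115X_g015, with 27.2 RPKM in testis against 110.6 in ovary, was taken in by 1 transcript named copine and is otherwise annotated mainly as tag-178 or Rab11 family-interacting protein 4.

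The traces of fer-1 RNA in the adult somatic tissues were set beside those of the sperm proteins. The intestine value was a median 2.33% of the testis value over the 7 members and 2.11% over the 28 sperm proteins with at least 100 RPKM in testis, which ranged from 0.648% to 3.85%. In carcass the medians were 1.16% and 1.17%. The 28 were chosen by the same testis value that the shares divide by, which favours low shares in every tissue. No member reached 100 RPKM in testis. PgE032_g001 had the highest intestine share of the members, 11.3%, which rests on about 32 reads, and was listed at 0 in carcass. Among the 27 sperm proteins with 5 to 50 RPKM in testis, the medians were 2.30% in intestine and 1.53% in carcass. Their upper quartile in intestine was 13.0%, above the 11.3% of PgE032_g001. However, these 27 include genes that are not sperm-specific, and their intestine shares ran up to 335%. All 12 major sperm protein genes had a value above 0 in both tissues, at least 1 RPKM in 9 of 12 in intestine and 6 of 12 in carcass, with sums of 325 and 140 RPKM against 12045.5 in testis. The part of carried-over testis or sperm RNA in these traces was not tested.

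In ovary the members were at a median 2.38% of their testis value and in embryo at 5.30%, against 0.113% and 0.395% for the same 28 sperm proteins. The 5.30% is the value of the Myoferlin-annotated transcript that stands for PgE089_g002, and the embryo median was 7.55% when only fer-1-annotated transcripts were used, a choice added after the data had been seen. The gap to the sperm proteins was smaller or turned round among sperm proteins of like testis level (27 genes with 5 to 50 RPKM), whose medians were 1.36% in ovary and 8.40% in embryo. The list includes genes that are not sperm-specific. Eliminated genes of that testis level, 437 besides the members, had medians of 12.1% in ovary and 16.1% in embryo, and of 1.83% in intestine and 0.915% in carcass. In embryo, the transcripts that stand for PgE089_g001 and PgE032_g002 were at 13.3% and 9.30% of testis. Both were higher in embryo than in ovary beyond their intervals. For PgE089_g001 this held in 1 of 3 transcripts. Its Myoferlin-annotated transcript had 0.3 RPKM in embryo (0.159 to 0.492) and 0.2 in ovary (0.106 to 0.320), and its hypothetical one was listed at 0 in both. The 10 transcripts of PgE089_g002 other than the one at 5.30% were at 8.81% to 19.0%, and its fer-1-annotated ones at 16.4% and 19.0%. PgE032_g001 was the reverse in its longer transcript, with 0.4 RPKM in embryo and 1.3 in ovary, and in its shorter one the intervals overlapped.

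**Figure D4:**
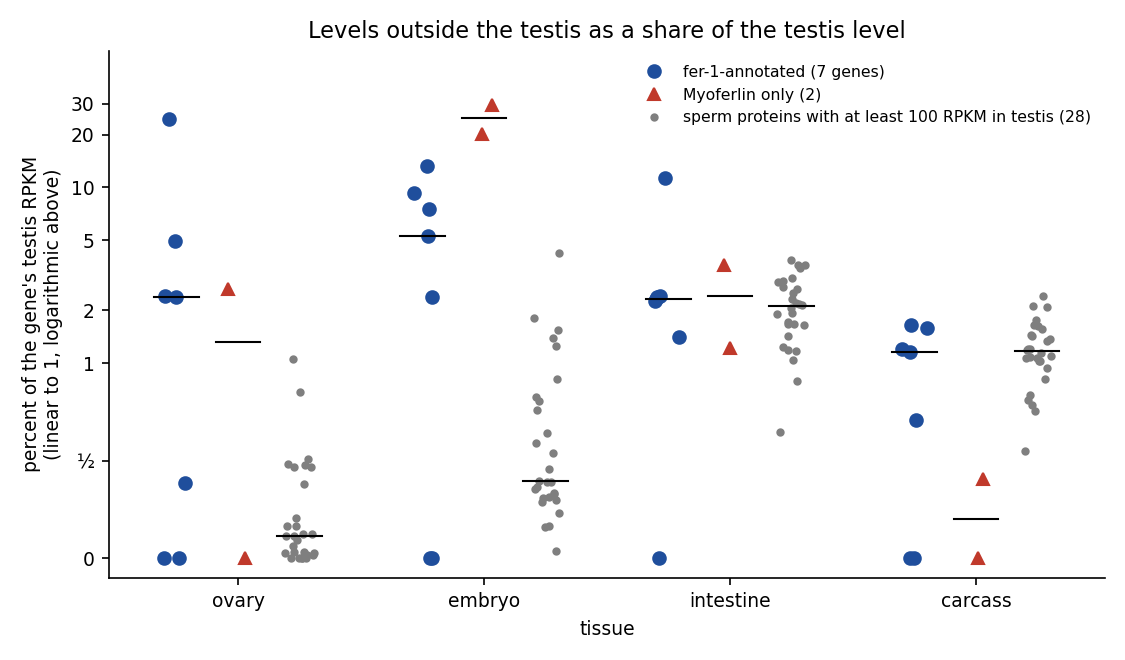
Value in ovary, embryo, intestine and carcass as a percent of the testis RPKM of the same gene (vertical, linear to 1 and logarithmic above), by the transcript that stands for each gene, for the 7 fer-1-annotated genes, the 2 Myoferlin genes and the 28 sperm proteins with at least 100 RPKM in testis. Short lines are medians. The sperm proteins were chosen by the testis level that the shares divide by, and no fer-1-annotated gene reached 100 RPKM. In intestine and carcass the fer-1 medians (2.33% and 1.16%) lie beside those of the sperm proteins (2.11% and 1.17%), and in embryo the 2 Myoferlin genes are highest, at 20.1% and 29.6%.

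The genes most like each member were sought by the distance between their log2(RPKM + 1) values over the 5 tissues, among genes with an informative annotation. With 5 tissues, of which 4 were low, this likeness rests mainly on the testis level. For PgE022_g007 the nearest were a pepsin inhibitor dit33 (PgR099_g027), at 52.4 RPKM in testis and a distance of 0.31, the tyrosine-protein kinase kin-31 (PgR029_g049) and a baculoviral iap repeat-containing protein (PgR036_g051). For PgE032_g002 they were the tyrosine-protein kinase Fes/Fps (PgR070_g027), at 30.6 RPKM in testis and a distance of 0.45, a major sperm protein gene (PgR085_g004) and an eliminated lamin-1 gene (PgE070_g002). For PgE032_g003 they were a pdz domain protein (PgR075_g043), the kinase zyg-1 (PgR042_g022) and an eliminated spinster-like protein 1 (PgE526_g001).

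For PgE089_g002, 2 of the 3 nearest genes are eliminated, the RNA polymerase II subunit RPB1 (PgE049_g001), at 25.4 RPKM in testis and a distance of 0.35, and the protein X component of pyruvate dehydrogenase (PgE371_g002), followed by the retained cuticle collagen 6 (PgB02X_g144). For PgE089_g001 they were an eliminated casein kinase II subunit alpha (PgE342_g001), a serpentine receptor (PgB09_g067) and an eliminated tau-tubulin kinase 2 (PgE156_g001). The closest match of all, at a distance of 0.20, was the solute carrier family 41 member 2 (PgR006_g208) to PgE142_g001, with 22.8 RPKM in testis, and 2 eliminated genes annotated as 40s ribosomal protein s2 (PgE024_g001 and PgE007_g004) followed. PgE032_g001 had no match closer than 0.70, to the intermediate filament gene ifa-1 (PgR015_g070), and next a gene with a lipid-binding LBP/BPI/CETP domain (PgR242_g003) and the metalloproteinase nas-6 (PgR124_g013).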

How the data were processed

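The deposited table gives, per transcript, position, strand, length, exons, annotation, 5′ marks, an eliminated mark and 1 value per tissue. The authors' tissue columns are read as RPKM, rounded to 1 decimal, because their low values step by whole reads over transcript length. The submitters' processing notes name TopHat2 and Cufflinks. The sources used here give neither their roles nor the genome build, the counting of shared reads or the making of the marks. Lengths, exon numbers and marks were used as deposited (0 columns belong to other samples).

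Depth was the library size at which transcripts of 50 to 250 nt below 15 RPKM came nearest to whole reads. A gene was represented by its transcript with the highest mean. Calls needed a difference of 2 on log2(RPKM + 1), pseudocount 1, with 5 RPKM in the higher tissue. They were counted over the whole table, with no test, as each tissue has 1 library. The depth and call steps were checked on simulated data. Named genes are all members, their scaffold neighbours, the 3 nearest genes per member and the 4 list genes highest in testis. The members and lists were chosen with earlier results of these data known. Python 3.11.15, pandas 2.3.3, numpy 2.4.6, scipy 1.17.1 and matplotlib 3.10.9 were used. The alternatives changed the transcript, scaling, pseudocount, threshold or minimum level.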

Additional observations from a re-analysis of the deposited data

How the results depend on the processing

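Under 15 alternatives, of which the last 3 (the transcript marked best expressed, fer-1-annotated transcripts only, and 6 genes) were chosen after seeing the data, the number of members higher in testis stayed between 5 and 7 against ovary, intestine and carcass. Enrichment over all tissues stayed between 4 and 7. Against embryo it was between 4 and 7, with 4 under the 8-fold threshold, which drops members by construction. The count called higher in ovary than in both adult somatic tissues stayed at 0, which the minimum of 5 RPKM in ovary fixed in the main setting. The median difference between testis and ovary was 4.03. It became 4.76 with transcripts summed, 3.26 with the longest transcript and 3.62 with the transcript marked best expressed. With median-of-ratios scaling it was 4.57, with a pseudocount of 0.1 it was 5.18 and with a pseudocount of 5 it was 2.43. In every member the transcript of the main setting was the one highest in testis. The cause of the shifts by transcript was not tested. Scaling shifted the testis minus ovary difference of single genes by a median of 0.13 (equal sums), 0.99 (median-of-ratios), 0.66 (upper quartile) and 0.20 (20 highest genes removed). These medians are over genes with at least 1 RPKM in testis or ovary. The members' median embryo value as a percent of testis, 5.30%, became 7.55% with fer-1-annotated transcripts only. No paired analysis was possible because each tissue has 1 library. Depth limits the low tissues most in embryo, with about 11900000 reads.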
